A study of Homo sapiens with 6 samples.

Results

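The interleukin-1 (IL-1) axis is described here through 6 of the 17222 gene names measured by RNA-seq in H226 cells: the ligands *IL1A* and *IL1B*, the receptor subunits *IL1R1* and *IL1RAP*, the adaptor *MYD88* and the kinase *IRAK2*. The genes were picked by name, as ligands to be read against receptor and adaptor genes, and they were chosen by their change between the conditions of these same libraries. Their changes upon knockdown are therefore given as values, without a test.

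IL-1α and IL-1β are inflammatory cytokines that are made without a classical secretion signal. Both bind the receptor encoded by *IL1R1*, and the accessory chain encoded by *IL1RAP* then joins the complex. The paired intracellular domains recruit MyD88 and IRAK kinases, which pass the signal through TRAF6 to NF-kB and MAP kinases. Many epithelial and mesenchymal cells respond to the cytokine by making chemokines and, in a feed-forward loop, more IL-1.

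H226 is an established human line labelled as squamous lung carcinoma. The cells carried a transient transfection of ASO_LINC#3, an antisense oligonucleotide against the lncRNA *SWINGN*, or of the control oligonucleotide ASO_CTRL, and RNA was collected 48 h later from 3 replicates per condition. The labels give no genotype or stable modification that differs between the conditions, and both were exposed to transfection and to an oligonucleotide. The design has a single *SWINGN* oligonucleotide in a single cell line. The labels and the study's results name H226 for these libraries, and BJ cells appear only in its description of the RNA-seq protocol. The *SWINGN* transcript was not analysed here, so its depletion was not checked. The study describes its experiments in general as biological triplicates, while the labels of these libraries give only replicate numbers and do not name separate cultures. The tests measure the spread between these libraries.

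The libraries held from 3686828 to 10546786 reads on genes, the fewest in ASO_LINC#3 replicate 3. Reads assigned to no gene made up 24.8%, 26.3% and 25.1% of the ASO_CTRL libraries and 28.0%, 28.1% and 27.9% of the ASO_LINC#3 libraries, so this share did not overlap between the conditions, and its part in the values below was not tested. In total 1106 genes were called changed with all libraries and 2616 without ASO_LINC#3 replicate 3, so the members are given for each library singly. Of the squamous markers 5 of 10 were measured, with a summed level of 135 to 165 CPM (reads scaled to library size) in ASO_CTRL and 92.9 to 99.8 CPM in ASO_LINC#3. Most of it came from *KRT5* and *DSC3*, at 103 and 42.5 CPM in ASO_CTRL, while the defining factors *TP63* and *SOX2* were not analysed here. Without overlap, 3 of the 5 were lower and 2 higher. The higher ones, *KRT6A* and *CLCA2*, had 1.33 and 1.44 CPM in ASO_LINC#3 and did not pass the filter on low counts. Over all genes tested, the shares without overlap were 17.3% lower and 18.7% higher. *DSC3* was called lower (log2 fold change −0.88, quasi-likelihood adjusted p = 0.00571). Of the epithelial markers 4 of 6 were measured, all of them keratins of simple epithelia, at 11696 to 12642 CPM in ASO_CTRL and 7103 to 12434 CPM in ASO_LINC#3. The value of 12434 CPM was that of replicate 3. Leukocyte markers were also summed, because myeloid cells are a major source of IL-1. Of these, 5 of 14 were measured, at 9.64 to 11.3 CPM in ASO_CTRL and 12.9 to 19.8 CPM in ASO_LINC#3, so the conditions did not overlap. Of all genes tested, 18.7% were likewise higher without overlap. The largest part was *ITGAX*, at 5.81 CPM in ASO_CTRL and 9.49 CPM in ASO_LINC#3, and *CD68* had 1.37 and 4.13 CPM. *CD14* was lower (log2 fold change −0.38), and *ITGAM* and *FCER1G* did not pass the filter on low counts. Of the 3 genes tested, 0 were called. The part of the leukocyte markers in the IL-1 values was not tested.

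Both ligand genes were higher in every knockdown library than in any control library. *IL1A*, which the GRCh37 annotation places on chromosome 2 (minus strand, 113531502 to 113542070), had 10.5, 5.33 and 10.4 CPM in ASO_CTRL replicates 1, 2 and 3 and 64.4, 61.8 and 32.3 CPM in the ASO_LINC#3 replicates. Replicate 3 of the knockdown held about as many *IL1A* reads, 119, as the deepest control library, 109, but from a much smaller total. The fitted log2 fold change was 2.58 (standard error 0.30), a 5.96-fold difference, and it was 2.81 without ASO_LINC#3 replicate 3. In these bulk libraries more cells expressing a gene and more RNA per cell cannot be told apart.

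*IL1B*, 45257 bp away on the same strand (113587328 to 113594393), was the most abundant of the 6 genes. It had 101, 76.9 and 105 CPM in the control libraries and 469, 502 and 402 CPM in the knockdown libraries. The fitted log2 fold change was 2.28 (standard error 0.16), a 4.85-fold difference. Singly, the ASO_LINC#3 replicates gave log2 changes of 2.33, 2.42 and 2.10. *IL1B* was thus the steadier of the ligands, since the *IL1A* changes were 2.90, 2.84 and 1.91. The 2 ligand transcripts kept a similar proportion to each other. *IL1A* made up 9.43%, 6.49% and 9.02% of the reads on both ligands in the control libraries and 12.1%, 11.0% and 7.43% in the knockdown libraries, so this share overlapped between the conditions.

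**Figure D1:**
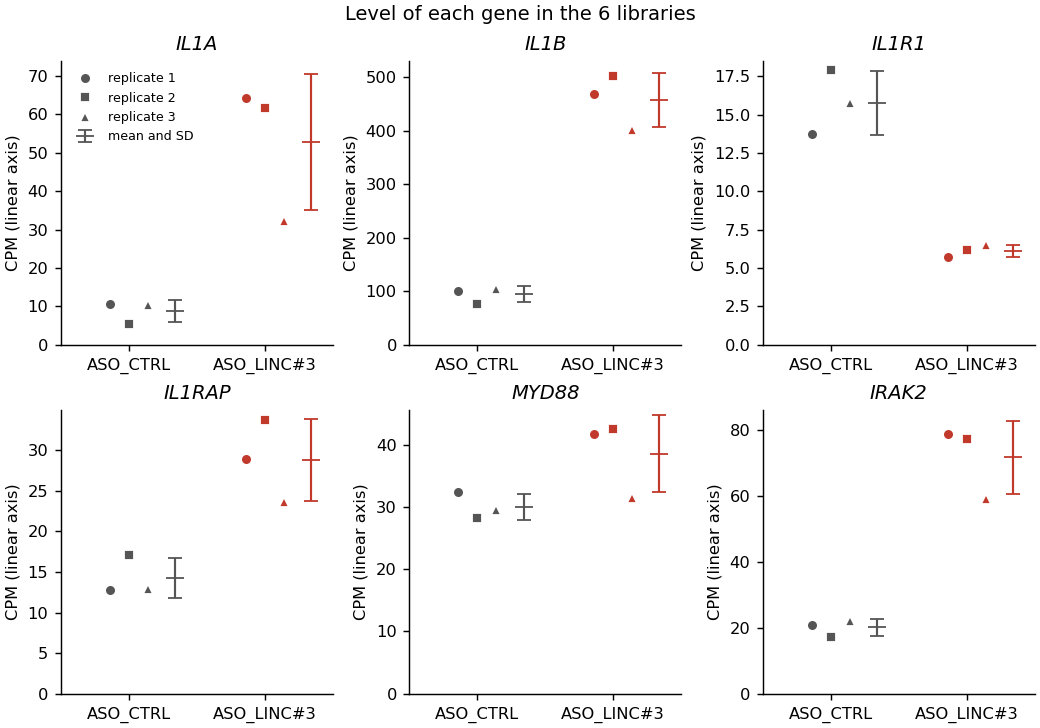
Level of each IL-1 gene in CPM (linear axis from 0), by condition. Symbols are replicates 1, 2 and 3, and the bar beside them is the mean with its SD (n = 3). *IL1B* lay at 76.9 to 105 CPM in ASO_CTRL and 402 to 502 CPM in ASO_LINC#3, *IL1R1* was lower in every knockdown library, and *MYD88* overlapped.

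The upstream bases of the 3 genes with the largest increases are shown because these genes moved together. They are the 250 bases before the RefSeq start on GRCh38.p14, read 5′ to 3′ on the gene's strand, at chr2:112784494-112784743 (minus strand) for *IL1A*, chr2:112836780-112837029 (minus strand) for *IL1B* and chr3:10164669-10164918 (plus strand) for *IRAK2*. For *IL1A* the more upstream of the listed starts was used. Capitals mark matches to any of 4 motifs searched on both strands: AP-1 (TGANTCA), kB (GGG and CC separated by any 5 bases), C/EBP (TTGCNNAA) and the TATA box (TATAAA).
IL1A: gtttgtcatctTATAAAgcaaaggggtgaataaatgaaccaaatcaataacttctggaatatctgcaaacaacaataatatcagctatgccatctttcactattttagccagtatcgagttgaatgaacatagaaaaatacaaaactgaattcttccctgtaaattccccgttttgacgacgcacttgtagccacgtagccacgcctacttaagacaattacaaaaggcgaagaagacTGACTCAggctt
IL1B: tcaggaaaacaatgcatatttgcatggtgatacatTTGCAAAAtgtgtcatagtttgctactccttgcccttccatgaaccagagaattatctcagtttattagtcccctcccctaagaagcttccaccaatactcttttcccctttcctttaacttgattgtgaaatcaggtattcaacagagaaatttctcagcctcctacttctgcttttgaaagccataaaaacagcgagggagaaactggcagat
IRAK2: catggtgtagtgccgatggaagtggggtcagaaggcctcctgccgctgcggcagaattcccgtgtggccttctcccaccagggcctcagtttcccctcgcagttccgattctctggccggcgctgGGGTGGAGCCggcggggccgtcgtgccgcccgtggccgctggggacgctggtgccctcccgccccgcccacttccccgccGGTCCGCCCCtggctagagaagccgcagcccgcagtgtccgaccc

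The *IL1A* window held an AP-1 match, TGACTCA, ending 6 bases before the start, and a TATA match 239 to 234 bases before it. The matches depend on the start used, since the window of the other listed *IL1A* start held 2 AP-1 matches and no TATA match. An AP-1 match was present in 6.59% of the 34788 distinct windows of this length, and a TATA match in 10.8%. The *IL1B* window held 1 match, to C/EBP, a motif found in 9.05% of windows. The *IRAK2* window held 2 kB matches and no other, and this loosely written motif matched 54.4% of windows. The windows also differed in base composition, with 37.6% G and C for *IL1A*, 40.0% for *IL1B* and 72.0% for *IRAK2*, against a median of 58.0% over all windows. None of the 4 motifs was shared by all 3 windows. A match is a description of letters, and binding was not measured here.

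The receptor subunits went in opposite directions. *IL1R1*, the ligand-binding chain, lies on the plus strand of chromosome 2 from 102681004 to 102796334. It had 13.7, 17.9 and 15.7 CPM in ASO_CTRL and 5.73, 6.16 and 6.51 CPM in ASO_LINC#3. All 3 knockdown libraries were below all controls, and the fitted log2 fold change was −1.37 (standard error 0.20), 2.58-fold lower. It was the only one of the 6 genes that was lower, and its changes in the 3 knockdown libraries were −1.41, −1.31 and −1.23. *IL1R1* had 24 to 39 reads in the knockdown libraries, so each of its values there is less precise than those of *IL1B*. Its antisense neighbour *IL1R1-AS1* shares 11 bp of its exons.

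*IL1RAP*, the accessory chain that is also used by the receptors for IL-33 and IL-36, lies on chromosome 3 from 190231840 to 190377539. It had 12.8, 17.0 and 12.9 CPM in ASO_CTRL and 29.0, 33.7 and 23.6 CPM in ASO_LINC#3. The groups did not overlap, and the fitted log2 fold change was 1.03 (standard error 0.19), 2.05-fold higher. Counts per gene do not separate the membrane-bound from the soluble isoforms of this chain.

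The opposite changes moved the balance of the receptor subunits within each library, a ratio that no scaling between libraries can alter. There were 0.931, 0.952 and 0.818 *IL1RAP* reads per *IL1R1* read in the control libraries and 5.05, 5.47 and 3.63 in the knockdown libraries. For the ligand against its receptor, there were 7.34, 4.30 and 6.66 *IL1B* reads per *IL1R1* read in ASO_CTRL and 81.9, 81.4 and 61.8 in ASO_LINC#3. Read numbers depend on transcript length, so the ratios compare libraries and not the abundance of the chains.

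**Figure D2:**
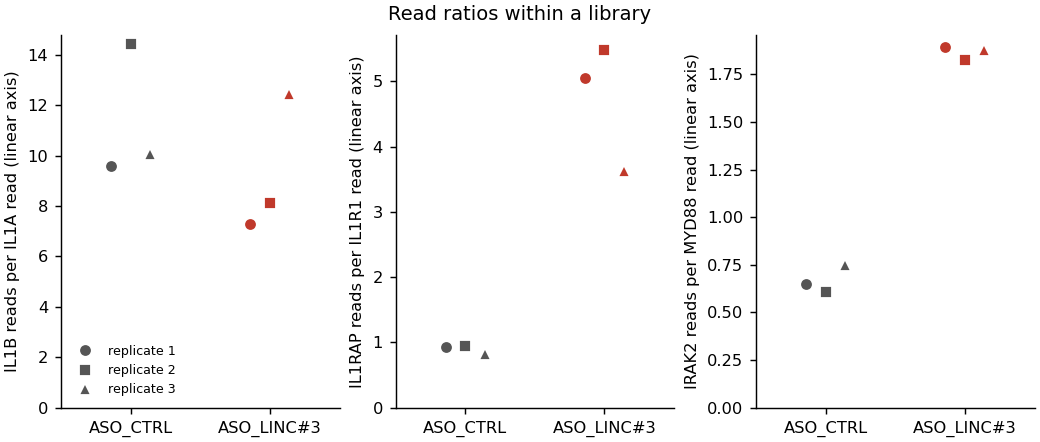
Ratios of reads within each library (linear axes from 0), by condition, with symbols for replicates 1, 2 and 3. *IL1B* per *IL1A* reads overlapped between the conditions, at 9.60 to 14.4 in ASO_CTRL and 7.29 to 12.5 in ASO_LINC#3, whereas *IL1RAP* per *IL1R1* and *IRAK2* per *MYD88* did not.

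Downstream of the receptor, the kinase gene was higher and the adaptor gene differed little. *IRAK2*, on chromosome 3 from 10206603 to 10285429, encodes an IRAK family member that joins the MyD88 complex and sustains its signal. It had 21.0, 17.2 and 22.1 CPM in ASO_CTRL and 78.9, 77.4 and 59.1 CPM in ASO_LINC#3. The groups were far apart, with a fitted log2 fold change of 1.83 (standard error 0.17), 3.56-fold higher.

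*MYD88*, on chromosome 3 from 38180043 to 38184515, encodes the adaptor shared by IL-1 receptors and most Toll-like receptors. It had 32.3, 28.2 and 29.6 CPM in ASO_CTRL and 41.7, 42.4 and 31.4 CPM in ASO_LINC#3. Replicate 3 of the knockdown lay within the control range while the other 2 lay above it, and the fitted log2 fold change was 0.37 (standard error 0.16), or 0.49 without replicate 3. The number of *IRAK2* reads per *MYD88* read was 0.650, 0.610 and 0.748 in the control libraries and 1.89, 1.82 and 1.88 in the knockdown libraries. ASO_LINC#3 replicate 3 did not stand apart in this ratio, although both genes were lower there than in the other knockdown libraries.

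**Figure D3:**
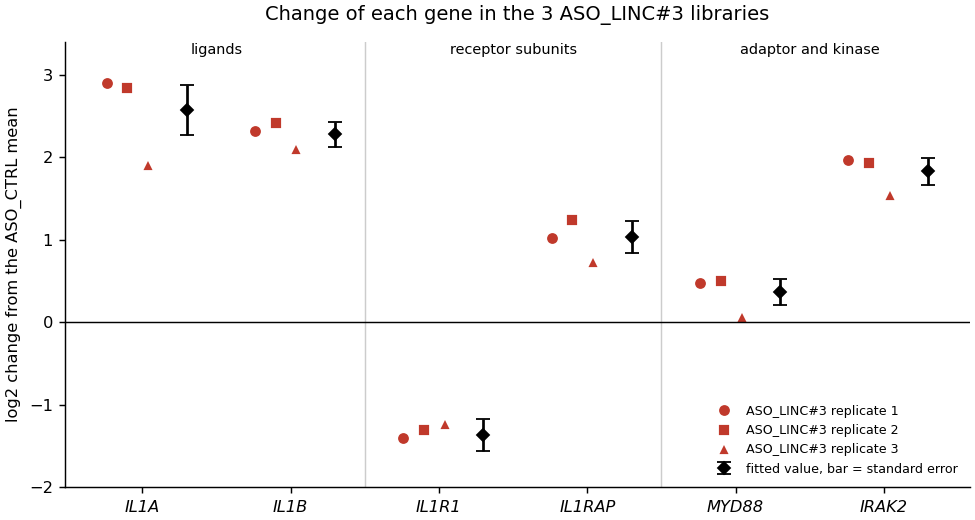
Log2 change of each IL-1 gene in the 3 ASO_LINC#3 libraries from the mean of ASO_CTRL, with the fitted log2 fold change and its standard error beside them. Replicate 3 gave the smallest increase of each of the 4 genes called higher, from 0.73 for *IL1RAP* to 2.10 for *IL1B*, *MYD88* (not called) was at 0.068 there, and *IL1R1* was lower in all 3 libraries.

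Calls followed the thresholds of the study's methods, an adjusted p under 0.01 together with a log2 change of more than 0.5 in size. Of the 6 members, 4 were called higher and 1 lower, and *MYD88* was not called. Of all 14660 genes tested, 4.91% were called higher and 2.63% lower. Conditions that did not overlap were found for 4 members in the upward and 1 in the downward direction, and for 18.7% and 17.3% of all genes. The members were chosen on this comparison, so nothing is read from their counts. The number of members called was 5 with all libraries and without ASO_CTRL replicate 2 or ASO_LINC#3 replicate 3, 4 without ASO_CTRL replicate 1 or 3 or ASO_LINC#3 replicate 2, and 3 without ASO_LINC#3 replicate 1. By size, the increases of *IL1A* and *IL1B* exceeded the log2 fold changes of 99.6% and 99.4% of the genes tested, and 1.40% of genes had a lower value than *IL1R1*.

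The levels of the genes were compared with each other per kilobase of annotated exons, as CPM per kb. In ASO_CTRL the order was *IL1B* (31.3 ± 5.02, SD, n = 3), *MYD88* (7.17 ± 0.50), *IRAK2* (5.86 ± 0.75), *IL1A* (4.34 ± 1.47), *IL1R1* (2.22 ± 0.29) and *IL1RAP* (1.27 ± 0.22). The ranges of *IRAK2* and *IL1A* overlapped, so these neighbours did not differ beyond their spread. In ASO_LINC#3 the order was *IL1B* (152 ± 16.9), *IL1A* (26.2 ± 8.84), *IRAK2* (20.9 ± 3.21), *MYD88* (9.20 ± 1.47), *IL1RAP* (2.56 ± 0.45) and *IL1R1* (0.86 ± 0.05), and again *IL1A* and *IRAK2* overlapped. *IL1A* thus passed from below to above *MYD88* in level. By this measure the receptor subunits were the least abundant of the 6 genes in both conditions, but this depends on the length used. With the length of the canonical transcript alone, *IL1R1* and *IL1RAP* did not differ beyond their spread from each other or from *IL1A* in ASO_CTRL, at 3.05 ± 0.40 and 3.00 ± 0.51 CPM per kb against 4.34 ± 1.47. First strands were primed with oligo-dT, and how evenly reads covered the transcripts is not given, so levels per kb are approximate.

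The likeness of other genes to the ligands was measured by the Pearson correlation of log2 CPM over the 6 libraries, among 10215 genes averaging 50 counts or more. The genes most like *IL1A* were *MME*, a membrane peptidase, *ACAA2*, an enzyme of fatty acid oxidation, *CD44*, the hyaluronan receptor, the chemokine *CXCL1* and *TSC22D1*, with r from 0.997 to 0.998. Those most like *IL1B* were the metallothionein *MT2A*, the receptor *FGFR1*, *SERINC3*, *AC104135.3* and *MIR503HG*, with r from 0.998 to 0.999. The lists shared no gene. The log2 changes in the 3 knockdown libraries were 1.71, 1.69 and 1.02 for *MME* and 1.74, 1.81 and 1.60 for *MT2A*. All 10 genes, like both ligands, changed least in ASO_LINC#3 replicate 3, and since they were picked over these same libraries nothing is read from this. The 6 points share their libraries, depth and 2 conditions in every pair of genes, and no p is given. Among the members, *IRAK2* had an r of 0.997 with *IL1B* and 0.988 with *IL1A*.

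Further genes of the pathway were read from lists written by role, and their changes were tested with edgeR's quasi-likelihood test across all genes. The median log2 fold change of all genes tested was −0.0027, and 4.91% of them were called higher and 2.63% lower. Of the other IL-1 family ligands and receptors, 4 of 18 could be tested, and none was called. At an unadjusted p below 0.05 there were 3 higher and 1 lower, and DESeq2 and limma-voom also called 0. The family median was 0.57. *IL18R1*, *SIGIRR* and *IL18BP*, named after their values were seen, were the 3 higher genes, with log2 fold changes of 0.93, 0.62 and 0.52. *IL18*, a related cytokine named after its values were seen, had 236 ± 18.0 CPM in ASO_CTRL and 168 ± 18.1 CPM in ASO_LINC#3 (SD, n = 3 each), a log2 fold change of −0.49 (quasi-likelihood adjusted p = 0.0262), opposite in sign to *IL1A* and *IL1B*. The natural antagonist *IL1RN*, the decoy receptor *IL1R2* and the inhibitory kinase *IRAK3* were not analysed here.

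Of the genes for cytokine maturation and release, 18 of 23 were tested, and 3 were called higher and 0 lower, with a median of 0.083. *NLRP3*, the sensor of an inflammasome that activates caspase-1, rose from 0.99 ± 0.31 to 9.03 ± 0.62 CPM. It had 5 to 10 reads in the control libraries and 32 to 59 in the knockdown libraries, a log2 change of 3.19 (standard error 0.28). *NLRP3* passed the filter on low counts only through the knockdown libraries, where it is high. It is among the 3 genes called, and no p is given for it. *P2RX7*, the ATP-gated channel that triggers that inflammasome, had 1.75 ± 0.18 CPM in ASO_CTRL and rose by 1.25 in log2 units (quasi-likelihood adjusted p = 0.0096), and the channel *PANX1* by 0.78 (quasi-likelihood adjusted p = 0.00767). Both lost their call when any library other than ASO_LINC#3 replicate 3 was removed (edgeR adjusted p from 0.0170 to 0.0509). *P2RX7* lost it with DESeq2 as well (adjusted p = 0.0216). In edgeR it also lost it with upper quartile scaling (adjusted p = 0.0102), no filter on low counts (0.0111) and a replicate block (0.0294). *PANX1* lost its call with the replicate block too (edgeR adjusted p = 0.0227). *CASP1*, the protease that cleaves the IL-1β precursor, had 4.79 ± 0.57 CPM in ASO_CTRL and 4.82 ± 0.68 CPM in ASO_LINC#3 (log2 fold change 0.017, quasi-likelihood adjusted p = 0.972).

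Of the receptor-proximal signalling genes, 14 of 18 were tested and 1 was called higher, with a median of 0.065. Over all genes tested 4.91% were called higher, so nothing is read from this count. The called gene was *SQSTM1*, the scaffold p62, at 0.73 on the log2 scale (quasi-likelihood adjusted p = 0.00129). It lost its call without ASO_CTRL replicate 3 (adjusted p = 0.0133). The IRAK genes next to *IRAK2* in the complex were not called. *IRAK1* had 412 ± 12.6 CPM in ASO_CTRL and 402 ± 70.4 CPM in ASO_LINC#3, a log2 fold change of −0.037 (standard error 0.14), and *IRAK4* had a value of 0.43 (standard error 0.19, quasi-likelihood adjusted p = 0.154). No call was made either for the ubiquitin ligase *TRAF6*, the inhibitor *TOLLIP* or the kinase adaptor *TAB2*, whose log2 values were 0.23, 0.45 and 0.24.

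In the kinase and NF-kB relay, 18 of 19 genes were tested and 2 were called higher, with a median of 0.21. *NFKB2* rose by 1.14 on the log2 scale (standard error 0.21, quasi-likelihood adjusted p = 0.00526) and *RELA* by 0.65 (standard error 0.14, quasi-likelihood adjusted p = 0.00873). *RELA* lost its call in each fit without 1 library except that without ASO_LINC#3 replicate 3 (adjusted p from 0.0256 to 0.0454), and *NFKB2* in those without any ASO_CTRL replicate or without ASO_LINC#3 replicate 1 (adjusted p from 0.0113 to 0.0262). *NFKB1* had a log2 fold change of 0.28 and was not called.

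Genes known to respond to IL-1 split by direction. Of 22, 17 were tested, 7 were called higher and 2 lower, with a median of 0.66. The growth factor *CSF2* had 1.75 to 2.58 CPM in ASO_CTRL and 61.9 to 75.1 CPM in ASO_LINC#3 (log2 fold change 4.95, quasi-likelihood adjusted p = 3.75e-07). The collagenase *MMP1* had at most 1 read in a control library and 20 to 34 in the knockdown libraries. It was at least 9.6-fold higher, against 3 reads in the shallowest control library. With *MMP1* at this bound, the list's median was also 0.66. *MMP1* passed the filter on low counts only through the knockdown libraries, so nothing is read from its call. The neutrophil chemokines *CXCL1*, *CXCL3* and *CXCL8* rose by 1.51, 2.24 and 2.11 on the log2 scale. *CXCL8*, counted under its older name *IL8*, lost its call without ASO_CTRL replicate 2 or 3 or ASO_LINC#3 replicate 1 (edgeR adjusted p 0.0150, 0.0226 and 0.0152). *CXCL2* and *ICAM1*, named after their values were seen, were the other genes called higher. The monocyte chemokine *CCL2* fell by 1.38 on the log2 scale, from 221 ± 26.7 to 85.2 ± 6.86 CPM (quasi-likelihood adjusted p = 0.000146). The complement gene *C3* fell by 0.86 (quasi-likelihood adjusted p = 0.00995) and kept that call only without ASO_LINC#3 replicate 3 among the fits that left out a library (adjusted p from 0.0276 to 0.0482 in the other 5). *IL6* had 13.3 to 23.5 CPM in ASO_CTRL and 17.6 to 22.8 CPM in ASO_LINC#3, so the conditions overlapped (log2 fold change 0.26, quasi-likelihood adjusted p = 0.483).

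All 15 genes listed under negative feedback on NF-kB and IL-1 signalling were tested, 4 were called higher and 0 lower, with a median of 0.66. The list includes *NFKBIZ* and *BCL3*, and the role of each gene in these cells was not tested. The ubiquitin-editing enzyme *TNFAIP3* had 52.2 ± 5.54 CPM in ASO_CTRL and 136 ± 19.5 CPM in ASO_LINC#3, and rose by 1.38 in log2 units (standard error 0.15, quasi-likelihood adjusted p = 0.000248). Its partner *TNIP1* rose by 1.14, the inhibitor *NFKBIE* by 1.16 and the phosphatase *DUSP1* by 0.78 on the log2 scale. *DUSP1* lost its call without ASO_CTRL replicate 2 or 3 (adjusted p 0.0113 and 0.0116). The major inhibitor gene *NFKBIA*, itself an NF-kB target, had 125 to 148 CPM in ASO_CTRL and 144 to 174 CPM in ASO_LINC#3, with overlap (log2 fold change 0.20, quasi-likelihood adjusted p = 0.332).

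**Figure D4:**
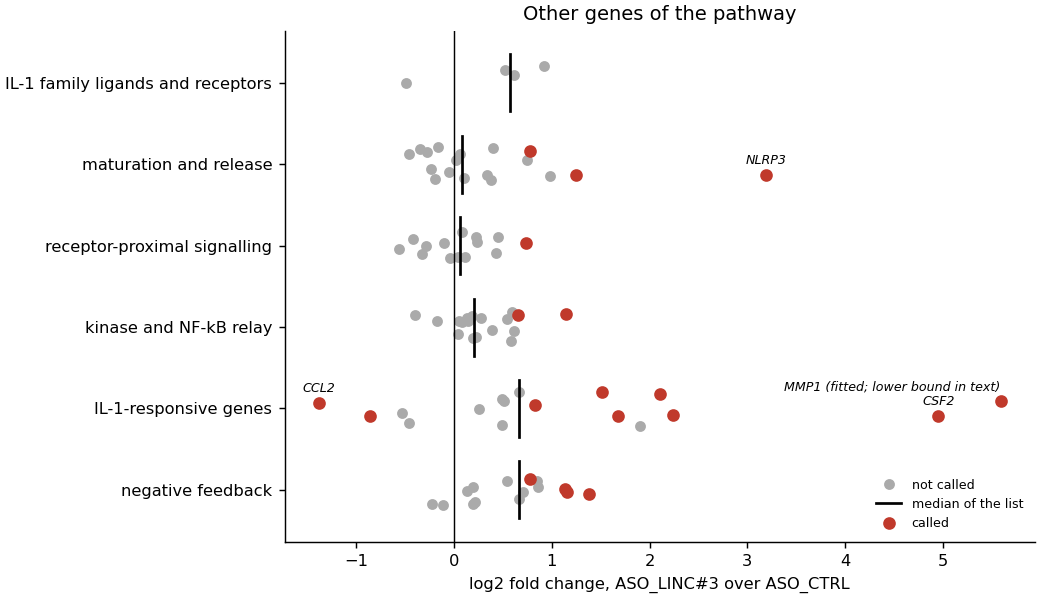
Log2 fold changes (ASO_LINC#3 over ASO_CTRL) of the other tested genes of the pathway, 1 point per gene, with called genes in red and the median of each list as a bar. The medians of the IL-1-responsive and negative feedback lists lay at 0.66 and that of the receptor-proximal list at 0.065, and *MMP1* is drawn at its fitted value rather than its lower bound.

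Without ASO_LINC#3 replicate 3, 9.42% of 15176 genes were called higher and 7.81% lower. The lists then held 4 higher and 1 lower gene for maturation and release, 3 higher for the relay, 7 higher and 4 lower for IL-1-responsive genes, and 6 higher for negative feedback. Of the other receptors that signal through MyD88, 2 of 10, *TLR6* and *LY96*, were measured, with 2 to 11 reads and 4 to 11 reads per library, and neither passed the filter on low counts. Where 0 genes of a list were called lower, edgeR at an unadjusted p below 0.05 gave 1 lower gene for maturation and release, 1 for receptor-proximal signalling, 0 for the relay and 0 for negative feedback, and DESeq2 and limma-voom called 0 in each.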

How the data were processed

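Total RNA of H226 cells, 3 libraries per condition, was sequenced in single reads of 75 bp, aligned by the authors to hg19 with STAR and deposited as raw counts per gene name. Which counter, annotation and strand setting produced them is not given in the sources used here. The 4 rows of reads assigned to no gene (24.8% to 28.1% of a library, higher in every ASO_LINC#3 library) were left out. Counts were filtered with filterByExpr, scaled by TMM and compared with the quasi-likelihood test of edgeR 4.0.16 in R 4.3.3, with Benjamini-Hochberg adjustment over 14660 genes. CPM use the TMM-scaled library sizes. Changes of single libraries are log2 CPM (prior count 2) minus the control mean. Alternatives used DESeq2 1.42.0 and limma-voom (limma 3.58.1), other scalings, filters and thresholds, a replicate block, and each library left out.

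Positions and exon lengths came from a GENCODE annotation on GRCh37, and promoter sequences from RefSeq on GRCh38.p14, which held all 6 members. The builds were not mixed. List genes were matched by symbol, 2 of them by an older symbol (*IL8*, *DFNA5*). Named genes were the members, up to 4 called genes per list and direction with the smallest p, a fixed set of pathway genes where measured, and the 5 genes most like each ligand. The members and lists were chosen with earlier results of these data known. Depth limits rare transcripts such as *IL1R1* in ASO_LINC#3 replicate 3.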

Additional observations from a re-analysis of the deposited data

How the results depend on the processing

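In the 8 fits with another tool, scaling, filter or replicate block, the log2 fold changes of the 6 members moved by less than the spread between replicates, from 2.54 to 2.60 for *IL1A* and from −1.39 to −1.35 for *IL1R1*. Leaving out each library gave 2.35 to 2.81 for *IL1A*, 2.16 to 2.36 for *IL1B*, −1.46 to −1.27 for *IL1R1*, 0.90 to 1.18 for *IL1RAP*, 1.74 to 1.94 for *IRAK2* and 0.30 to 0.49 for *MYD88*. Counts of called genes were less stable. With the replicate number as a block (replicate block), 656 genes in all were called instead of 1106, and 1 gene higher for maturation and release, 1 higher for the relay and 1 lower among IL-1-responsive genes. Over all genes tested, same-numbered libraries did not deviate together (r = 0.059, −0.15 and −0.18), so the number was not used as pairing. With 3 libraries per condition, these values cannot show that the libraries were unpaired. With at least 10 counts in every library, 1 maturation gene was called higher, but *NLRP3* and *P2RX7* did not pass that filter and were not tested. *MMP1* did not pass it either, and 6 IL-1-responsive genes were called higher. With that filter or no filter, 1 IL-1-responsive gene was called lower. At an adjusted p below 0.05, 2465 genes were called in all, with 4 higher in the relay and 1 higher among the IL-1 family. Fits that each left out 1 library called 359 genes (without ASO_CTRL replicate 3) to 2616 (without ASO_LINC#3 replicate 3). In them the lists held 1 to 4 higher and 0 to 1 lower for maturation and release, and 0 to 3 higher for the relay. Receptor-proximal genes had 0 to 1 higher, and the IL-1 family had 0 to 1 lower. IL-1-responsive genes had 5 to 7 higher and 1 to 4 lower, and negative feedback had 3 to 6 higher. No direction of a called gene named here reversed in these fits.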
